A study of Gallus gallus with 9 samples.

Results

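The cystatins, which are inhibitors of cysteine proteases, were followed together with the lysosomal proteases known as cathepsins in the circulating cells of the chick embryo. The set comprised 8 genes: the inhibitors CSTA, CST7 and CST3, and the proteases CTSB, CTSC, CTSD, CTSS and LGMN. All probe sets of the Affymetrix chicken array that the platform annotation assigned to one of these symbols were taken, which gave 13 of the 38439 probe sets measured and 8 of 13009 gene symbols. The genes had been chosen by their signals in the blood fractions, with the difference between nRBC and RBC arrays already known. That difference is therefore given for them as a description without a test, and only the embryonic stages are tested.

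Cystatins close the active site of papain-like cysteine proteases, and these proteases degrade proteins in the endosomes and lysosomes of most cells. In the blood of mammals, cathepsins are prominent in macrophages, granulocytes and other leukocytes, where they cut antigens, activate the serine proteases of granules and break down ingested material. The inhibitors act in different compartments: the CSTA protein (cystatin A or stefin A) stays in the cytosol, CST3 (cystatin C) is secreted by many cell types, and CST7 (cystatin F) is known from human and mouse leukocytes as an inhibitor that reaches endosomes and lysosomes.

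Blood was drawn from the ventricles of chicken embryos at embryonic day 6 (E6) and day 4 (E4) and parted on a density gradient. The nRBC fraction is the lighter layer, depleted of red blood cells, and the RBC fraction is the denser layer of red blood cells. Each stage and fraction was measured on 2 arrays from separate pools of embryos, 8 blood arrays in all, and whole embryonic heart, the negative control, was measured on 1 array. The heart is E6 by its sample label, and E4 by the heading of the deposited table. Whether nRBC and RBC arrays came from the same pools is not stated.

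Values are log2 of the array signal after quantile normalization, so that a difference of 1 is a doubling. A probe set is called Present where its signal stood above the mismatch background. Between 34.0% and 36.0% of probe sets were Present on the nRBC arrays, against 22.4% to 29.4% on the RBC arrays and 40.5% on the heart array. By their markers, red cell RNA was present in both fractions and cardiac RNA in the nRBC fraction. The summed signal of 9 red cell genes was 15.9 to 16.3 (log2) on the nRBC arrays and 16.1 to 16.2 on the RBC arrays. None of the 9 differed between the fractions at a Benjamini-Hochberg adjusted p under 0.05 in limma. The globins among them averaged 13.2 to 13.5 in both fractions, near the top of the signal scale, and make up most of the sum. A difference may not show there, and the paper reported hemoglobins higher in RBCs by quantitative PCR. Of the others, EPB42, SLC4A1, SPTB and TFRC stood at -1.146, -0.673, -1.435 and -0.186 for nRBC minus RBC, without passing. The summed signal of 23 cardiac muscle genes was 10.7 to 12.8 in nRBCs, 8.35 to 8.60 in RBCs and 16.4 in the heart. By the same test 11 of the 23 were higher in nRBCs, as were 4.56% of all probe sets. The ratio of 3′ to 5′ GAPDH signal, a measure of RNA and amplification quality, was 12.7 on E6 nRBC replicate 1, 4.22 to 5.99 on the other nRBC arrays, 9.44 to 11.1 on the RBC arrays and 2.08 on the heart array. Its part in the differences below was not tested. In such bulk samples, fewer cells of a type and less RNA per cell cannot be told apart.

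The 13 probe sets fell into distinct patterns. CSTA and 1 of the 3 CST7 probe sets were high on all nRBC arrays and not Present on any RBC array. CTSC, CTSS and 1 of the 2 CTSB probe sets were higher on each nRBC array than on each RBC array, by smaller amounts, while CST3 lay at similar levels in both fractions and highest in the heart. Of the 13, 6 were Present on every array, and 1, a CST7 probe set, on none of the blood arrays.

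**Figure D1:**
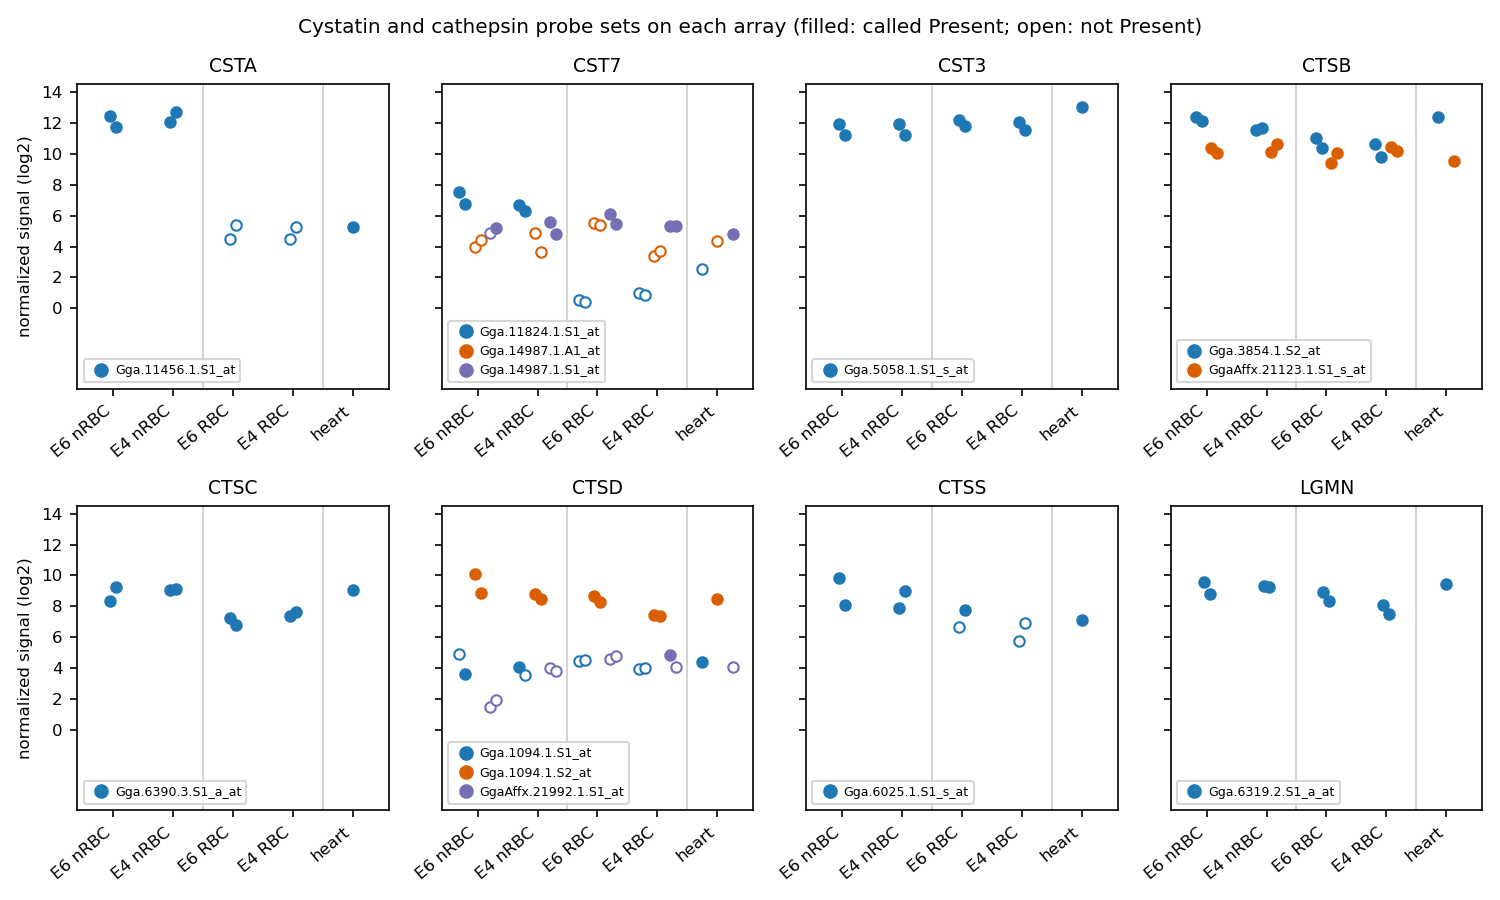
Normalized log2 signal (vertical axis) of each probe set of the 8 genes on the 2 arrays of each blood group and on the heart array, 1 point per array, with filled points Present and open points not Present. CSTA lies between 11.78 and 12.70 on the nRBC arrays and between 4.48 and 5.43 on the RBC arrays, while CST3 lies above 11 on all arrays.

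Of the inhibitors, CSTA differed most. Its probe set Gga.11456.1.S1_at measured 12.46 and 11.78 in E6 nRBCs and 12.09 and 12.70 in E4 nRBCs, against 4.52 and 5.43 in E6 RBCs, 4.48 and 5.26 in E4 RBCs and 5.24 in the heart. The deposited signals behind these values, before normalization, were 3905.5, 3314.5, 4083.7 and 9727.6 on the same nRBC arrays, against 13.9, 57.9, 13.5 and 53.7 on the RBC arrays and 46.0 on the heart array. The lowest nRBC array stood 6.35 above the highest RBC array, and no RBC array was called Present. The nRBC mean was 12.26 ± 0.41 and the RBC mean 4.92 ± 0.49 (SD, n = 4 each), a difference of 7.34. By these means CSTA was 162-fold higher in nRBCs, a size that rests on RBC signals not called above background. The heart array was called Present at 5.24, below the 5.43 of E6 RBC replicate 2, which was not. The order of the group means was E4 nRBC, E6 nRBC, heart, E6 RBC and E4 RBC. The arrays of the nRBC stages overlapped, and so did those of the last 3 groups in that order.

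CST7 gave different answers by probe set. On Gga.11824.1.S1_at it measured 7.52 and 6.78 in E6 nRBCs and 6.68 and 6.31 in E4 nRBCs, against 0.55 and 0.39 in E6 RBCs, 0.97 and 0.83 in E4 RBCs and 2.54 in the heart. All 4 nRBC arrays were Present, and neither an RBC array nor the heart array was. The mean was 6.82 ± 0.50 in nRBCs and 0.68 ± 0.26 in RBCs (SD, n = 4 each). On each RBC array the larger of the measured signal and the lowest signal called Present was taken. By that rule CST7 on this probe set was at least 16.6-fold higher in nRBCs. The bound holds under that rule only. Other probe sets were not Present at higher signals, as CTSS was not at 6.89 on E4 RBC replicate 2. With 16 added to each signal the CST7 difference was 2.88 (log2), below the bound. No neighbours in its order of groups, E6 nRBC, E4 nRBC, heart, E4 RBC and E6 RBC, overlapped, although the last 3 lay without a Present call and have no measured order.

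The other CST7 probe sets, both named for the transcript cluster Gga.14987.1, did not share this split. Gga.14987.1.S1_at measured 4.89 and 5.17 in E6 nRBCs and 5.56 and 4.84 in E4 nRBCs, against 6.13 and 5.44 in E6 RBCs, 5.36 and 5.31 in E4 RBCs and 4.81 in the heart. It was Present on 3 nRBC arrays, on all RBC arrays and on the heart array, and its fractions overlapped. Gga.14987.1.A1_at, Present on none of the 9 arrays, lay between 3.64 and 4.86 in nRBCs and between 3.37 and 5.51 in RBCs. The paper lists Gga.11824.1.S1_at as cystatin F, among its genes higher in nRBCs. A statement on CST7 in these cells thus depends on the probe set, and which of them matches the CST7 transcript was not examined.

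CST3 codes for cystatin C. Its probe set measured 11.92 and 11.23 in E6 nRBCs and 11.93 and 11.23 in E4 nRBCs, against 12.17 and 11.82 in E6 RBCs, 12.10 and 11.58 in E4 RBCs and 13.05 in the heart. It was Present on all arrays. The fractions overlapped, with 11.58 ± 0.40 in nRBCs and 11.92 ± 0.27 in RBCs (SD, n = 4 each), and no blood array reached the heart. CST3 and CST7 lie on the same chromosome in the reference annotation (GRCg7b), with 1 protein-coding gene, SYNDIG1, between them.

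Of the proteases, CTSB codes for cathepsin B, a lysosomal cysteine protease that trims peptides from their end and also cuts within chains. On Gga.3854.1.S2_at it measured 12.41 and 12.14 in E6 nRBCs and 11.57 and 11.71 in E4 nRBCs, against 11.03 and 10.36 in E6 RBCs, 10.66 and 9.78 in E4 RBCs and 12.39 in the heart. Each nRBC array was above each RBC array, and the means of 11.96 ± 0.38 and 10.46 ± 0.53 (SD, n = 4 each) differed by 1.50. The heart and E6 nRBCs overlapped at the top of the order, followed by E4 nRBCs and then the RBC stages, which overlapped each other. The second CTSB probe set, GgaAffx.21123.1.S1_s_at, lay between 10.09 and 10.67 in nRBCs and between 9.43 and 10.42 in RBCs, so that its fractions overlapped. The _s_at suffix marks probe sets whose probes may match transcripts of more than a single gene, and CST3 and CTSS were also read by such probe sets.

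CTSC codes for cathepsin C (dipeptidyl peptidase I), which in mammals activates the serine proteases of leukocyte granules and is a target of cystatin F. It measured 8.34 and 9.25 in E6 nRBCs and 9.09 and 9.09 in E4 nRBCs, against 7.23 and 6.77 in E6 RBCs, 7.38 and 7.61 in E4 RBCs and 9.04 in the heart. The groups did not overlap, the lowest nRBC array being E6 nRBC replicate 1. The means were 8.94 ± 0.41 in nRBCs and 7.25 ± 0.36 in RBCs (SD, n = 4 each), a 3.23-fold difference, and the heart lay among the nRBC arrays.

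CTSS codes for cathepsin S, a cysteine protease of antigen-presenting cells that cuts the invariant chain of MHC class II. Its probe set measured 9.82 and 8.11 in E6 nRBCs and 7.87 and 8.96 in E4 nRBCs, against 6.65 and 7.74 in E6 RBCs, 5.75 and 6.89 in E4 RBCs and 7.14 in the heart. It was Present on all nRBC arrays and on 1 RBC array, E6 RBC replicate 2. The difference of the means was 1.93, but the arrays within each fraction were spread over more than a log2 unit, with an SD of 0.89 in nRBCs and 0.82 in RBCs. The gap between the lowest nRBC and the highest RBC array was only 0.13. That RBC array, E6 RBC replicate 2, was among the 3 blood arrays with few signals under 1. Within those 3 the difference was 1.65, and within the 5 with many it was 2.40.

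CTSD codes for cathepsin D, an aspartic protease that cystatins do not inhibit. On Gga.1094.1.S2_at, its brightest probe set, it measured 10.07 and 8.83 in E6 nRBCs and 8.82 and 8.48 in E4 nRBCs, against 8.66 and 8.27 in E6 RBCs, 7.44 and 7.36 in E4 RBCs and 8.47 in the heart. The fractions overlapped, because E6 RBC replicate 1 exceeded E4 nRBC replicate 2, although the nRBC mean was 1.12 higher. The other CTSD probe sets were dim. Gga.1094.1.S1_at was Present on 2 nRBC arrays and on no RBC array and lay between 3.54 and 4.88 in nRBCs and between 3.96 and 4.52 in RBCs.

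The third CTSD probe set, GgaAffx.21992.1.S1_at, was Present on a single blood array, E4 RBC replicate 1. It measured 1.46 and 1.91 in E6 nRBCs and 3.97 and 3.79 in E4 nRBCs, against 4.59 and 4.79 in E6 RBCs, 4.85 and 4.04 in E4 RBCs and 4.05 in the heart. Here nRBCs lay below RBCs on all arrays, opposite to the brightest CTSD probe set, at signals that were mostly not above background.

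LGMN codes for legumain, a protease that cuts after asparagine and takes part in the maturation of several cathepsins. In human cells it is inhibited by some cystatins at a site of its own. It measured 9.57 and 8.80 in E6 nRBCs and 9.34 and 9.23 in E4 nRBCs, against 8.93 and 8.33 in E6 RBCs, 8.06 and 7.52 in E4 RBCs and 9.47 in the heart. The fractions overlapped at E6, where E6 RBC replicate 1 exceeded E6 nRBC replicate 2, and did not overlap at E4.

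**Figure D2:**
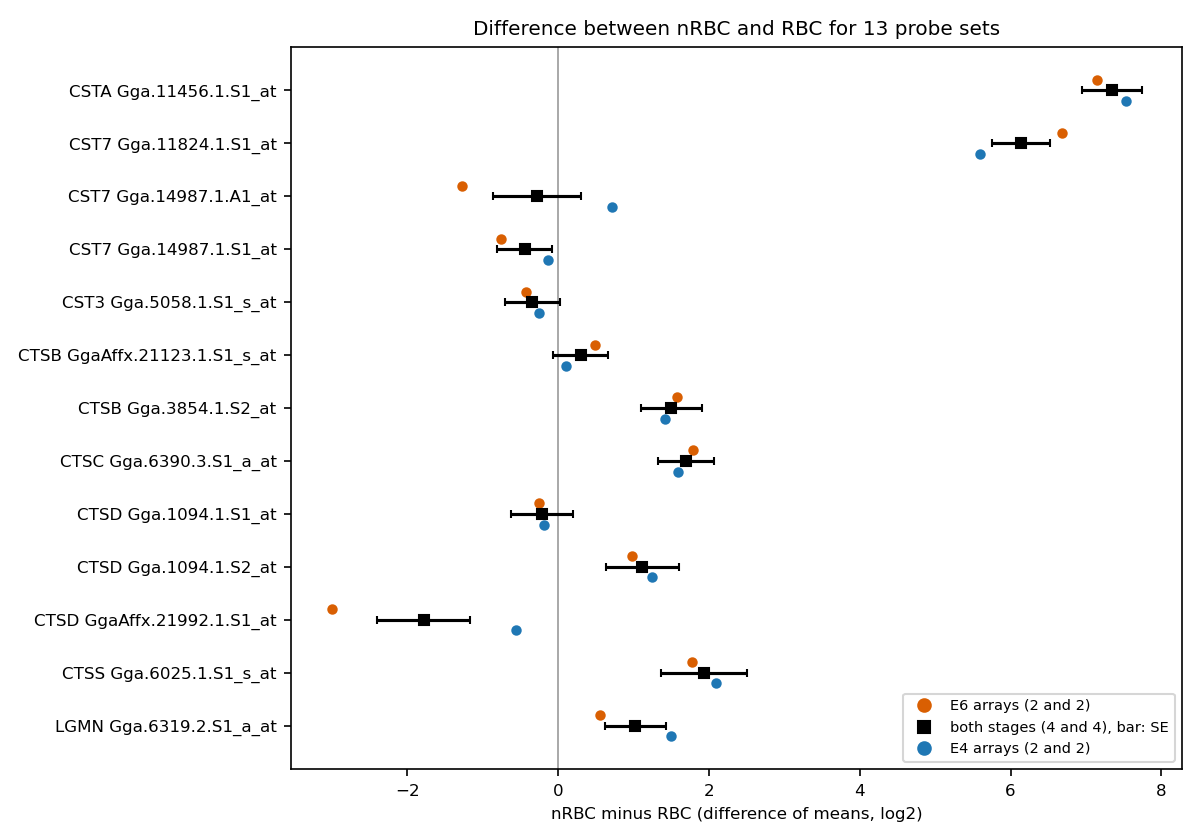
Difference between the nRBC and the RBC mean in log2 units (horizontal axis) for the 13 probe sets, with the E6 arrays above, both stages with the SE of the limma fit in the middle and the E4 arrays below. CSTA (7.34) and CST7 on Gga.11824.1.S1_at (6.14) stand apart, and the proteases CTSB (1.50 and 0.30), CTSC (1.69), CTSS (1.93) and LGMN (1.02) lie right of 0.

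Set beside their proteases, the inhibitors spanned the wider range. The differences between nRBCs and RBCs were 7.34 for CSTA, 6.14, -0.28 and -0.44 for the CST7 probe sets and -0.34 for CST3. Over the probe sets of CTSB, CTSC, CTSS and LGMN they were 0.30 to 1.93, and over those of CTSD they were 1.12, -0.22 and -1.78. The median over the 13 probe sets was 1.02, beside -0.20 over all probe sets. On 5 of the 13 all nRBC arrays were above all RBC arrays (7.97% of all probe sets), and on 1 they were all below (6.79%). No meaning is read from these shares, since the genes were picked with this contrast in view.

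The same directions held at each stage for all probe sets but the CST7 probe set Gga.14987.1.A1_at, where nRBCs minus RBCs was -1.27 at E6 and 0.71 at E4. For CSTA the difference was 7.15 at E6 and 7.53 at E4, and for CST7 on Gga.11824.1.S1_at it was 6.68 at E6 and 5.59 at E4. For LGMN it was 0.55 at E6 and 1.50 at E4. When 16 was added to each signal before taking log2, which damps dim signals, the difference for CST7 on Gga.11824.1.S1_at was 2.88 and that for CSTA 6.69.

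Some markers of other cell types were also higher in nRBCs by limma. Of all probe sets, 4.56% were called higher and 0.809% lower. Of 13 macrophage genes, 5 (CSF1R, TIMD4, C1QB, LY86 and CYBB) were higher in nRBCs and none lower by limma, and their summed signal was 9.69 to 11.3 (log2) in nRBCs, 8.67 to 9.65 in RBCs and 8.79 in the heart. Among the defining ones, CSF1R, the receptor of the macrophage growth factor, was Present on all 4 nRBC and no RBC arrays, while CYBB, TLR4, C1QC and LYZ were Present on none of the 9 arrays. MRC1, the macrophage mannose receptor, averaged 6.46 in nRBCs and 8.25 in RBCs, with Present calls on 4 nRBC and 3 RBC arrays, and did not pass (adjusted p = 0.0833). MARCO and MMR1L4 were also dimmer in nRBCs without passing, by 0.547 and 0.378. MARCO was Present on 1 nRBC and 0 RBC arrays, and MMR1L4 on 1 nRBC and 3 RBC arrays. Of 7 thrombocyte genes, 4 were higher in nRBCs, with a summed signal of 13.4 to 14.4 in nRBCs, 12.0 to 12.9 in RBCs and 8.64 in the heart. TUBB1, Present on all arrays, made up most of the RBC sum, at 11.65 in nRBCs and 12.47 in RBCs, and did not pass. The other 6 were Present on no RBC array, and THBS1, Present on none of the arrays, was 0.247 dimmer in nRBCs. Of 5 granulocyte genes, 3 were higher, with a summed signal of 9.90 to 11.1 in nRBCs, 6.02 to 6.45 in RBCs and 7.61 in the heart. Of 18 fibroblast genes, 12 were higher in nRBCs. The summed signal of the 18 was 12.0 to 13.4 in nRBCs, 8.50 to 9.16 in RBCs and 15.0 in the heart. Of 14 endothelial genes, 5 were higher in nRBCs. The summed signal of the 14 was 9.58 to 10.4 in nRBCs and 8.42 to 9.68 in RBCs, which overlapped, and 11.0 in the heart. FLT1, EGFL7, ESAM and EMCN stood at -1.38, -1.37, -1.30 and -1.42 for nRBC minus RBC, without passing. FLT1, ESAM and EMCN were Present on none of the arrays.

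The array E6 nRBC replicate 1 held the highest macrophage signal, 11.3 against 9.69, 10.2 and 10.4 on the other nRBC arrays. The macrophage list was not alone in this, since the same array was also the highest of the nRBC arrays in the thrombocyte, red cell, fibroblast, endothelial and cardiac muscle signal, though not in the granulocyte signal (10.6, against 9.90 to 11.1 on the others). After quantile normalization it also held the highest CTSS (9.82), CTSD on Gga.1094.1.S2_at (10.07), CTSB on Gga.3854.1.S2_at (12.41), LGMN (9.57) and CST7 on Gga.11824.1.S1_at (7.52) of all blood arrays, and the lowest CTSC of the nRBC arrays (8.34). CSTA and the other CTSB probe set were then highest on E4 nRBC replicate 2. Without quantile normalization, E4 nRBC replicate 2 held the highest nRBC value of all these probe sets but that of CTSC, which is named for its lowest value. E6 nRBC replicate 1 also had the highest ratio of 3′ to 5′ GAPDH signal, at 12.7. The part of these cell types in the differences of the cystatins and cathepsins was not tested.

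Stage was not used in choosing the genes and could be tested, although with 2 arrays per group. None of the 13 probe sets differed between E6 and E4 in either fraction, nor did the stage difference differ between the fractions, at an adjusted p under 0.05 in limma. The same was true of all probe sets (0.0% called in each of these contrasts), and at an unadjusted p under 0.05 the shares were 4.41% in nRBCs, 7.96% in RBCs and 5.3% for the difference between the fractions. The intervals were wide. For CSTA, E6 minus E4 was -0.27 in nRBCs (95% confidence interval -1.71 to 1.16, adjusted p = 0.9997) and 0.10 in RBCs (-1.33 to 1.54, adjusted p = 0.9815), intervals that reach past a doubling. For CST3 it was close to 0 in both fractions, -0.004 in nRBCs (-1.31 to 1.30) and 0.16 in RBCs (-1.15 to 1.46).

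**Figure D3:**
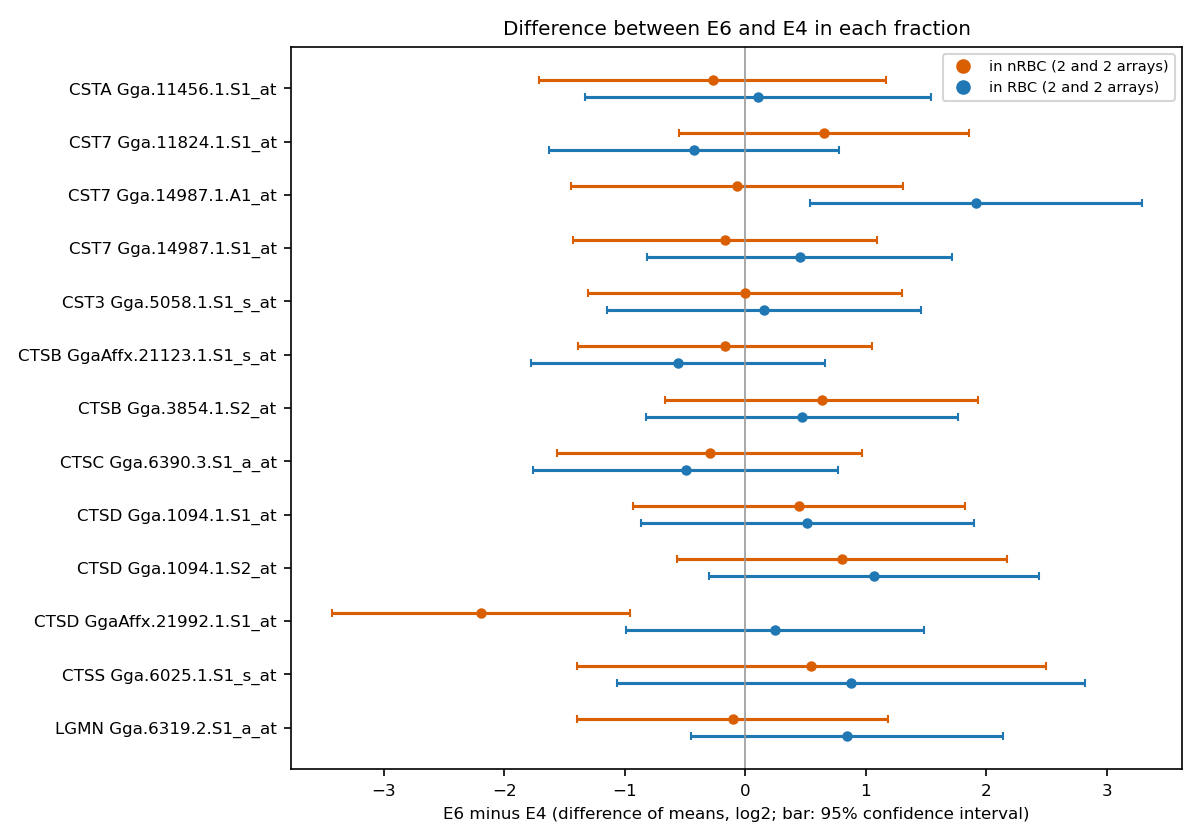
Difference between the E6 and the E4 mean in log2 units (horizontal axis) for the 13 probe sets, with nRBCs above RBCs for each and bars giving the 95% confidence interval of the limma fit. The intervals of all but 2 differences include 0, the exceptions being CTSD on GgaAffx.21992.1.S1_at in nRBCs (-2.19) and CST7 on Gga.14987.1.A1_at in RBCs (1.91).

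CST7 on Gga.11824.1.S1_at was higher on both E6 nRBC arrays than on both E4 nRBC arrays, by 0.65 in the means (-0.55 to 1.86, adjusted p = 0.9997), and CTSB on Gga.3854.1.S2_at was as well, by 0.63 (-0.67 to 1.93, adjusted p = 0.9997). The brightest CTSD probe set was 0.80 higher at E6 in nRBCs (-0.57 to 2.17, adjusted p = 0.9997) and 1.06 higher in RBCs (-0.31 to 2.43, adjusted p = 0.7102), with the E6 arrays above the E4 arrays in each fraction. LGMN was 0.84 higher at E6 in RBCs (-0.45 to 2.13, adjusted p = 0.7554), again with no overlap, and 0.10 lower in nRBCs (-1.40 to 1.19, adjusted p = 0.9997). None of these passed the test over all probe sets. The directions in nRBCs depended on the normalization. Without it the median of all probe sets was -0.671 for E6 minus E4 in nRBCs (-0.01 with it), CST7 on Gga.11824.1.S1_at stood at -0.09, CTSB on Gga.3854.1.S2_at at -0.04 and the brightest CTSD probe set at 0.004, and on none of the 13 did the E6 nRBC arrays lie above the E4 nRBC arrays. The deposited CST7 signals on Gga.11824.1.S1_at were 143.6 and 117.9 in E6 nRBCs and 113.4 and 169.0 in E4 nRBCs, and thus overlapped.

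CTSC leaned the other way, with E6 minus E4 at -0.30 in nRBCs (-1.56 to 0.97) and -0.50 in RBCs (-1.76 to 0.77), and CTSS was 0.55 (-1.40 to 2.49) and 0.88 (-1.07 to 2.82) higher at E6 with overlapping arrays, the nRBC value falling below 0 without quantile normalization. The largest stage differences sat on probe sets with few or no Present calls. For CTSD on GgaAffx.21992.1.S1_at, E6 minus E4 was -2.19 in nRBCs (-3.43 to -0.96, adjusted p = 0.8451), where no nRBC array was Present, and the E6 minus E4 difference in nRBCs minus that in RBCs was -2.44 (adjusted p = 0.8519). For CST7 on Gga.14987.1.A1_at, E6 minus E4 was 1.91 in RBCs (0.53 to 3.29, adjusted p = 0.4651), with no Present call at all. In nRBCs the E6 arrays lay above the E4 arrays on 3 of the 13 probe sets (17.1% of all probe sets) and below on 1 (16.1%). In RBCs they lay above on 5 (19.1%) and below on 3 (19.7%).

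The heart, on a single array, allows no test. The nRBC mean was more than 1 log2 unit above the heart on 3 of the 13 probe sets, namely CSTA (7.02 above), CST7 on Gga.11824.1.S1_at (4.28 above) and CTSS (1.55 above), where 17.9% of all probe sets were. On 2 it was more than 1 unit below, CST3 by 1.48 and the dim CTSD probe set GgaAffx.21992.1.S1_at by 1.27, where 18.8% of all probe sets were. CSTA and CST7 on Gga.11824.1.S1_at were thus lower in the heart than on each nRBC array. By smaller differences of the means, so were CTSS, CTSD on Gga.1094.1.S2_at, CTSB on GgaAffx.21123.1.S1_s_at and CST7 on Gga.14987.1.S1_at.

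CTSB on Gga.3854.1.S2_at, CTSC and LGMN were about as bright in the heart as in nRBCs. For them the nRBC mean minus the heart was -0.44, -0.10 and -0.24. It was 0.80 for CTSB on GgaAffx.21123.1.S1_s_at and 0.58 for CTSD on Gga.1094.1.S2_at, which lay above the heart on each nRBC array. RBCs stood lower than the heart by 1.94 for CTSB on Gga.3854.1.S2_at, 1.79 for CTSC and 1.26 for LGMN. For these genes the cardiac muscle and fibroblast signal of the nRBC arrays, given above, moved in the same direction as the difference between fractions, and its part was not tested. Within the nRBC arrays CTSC was lowest on E6 nRBC replicate 1, which held the highest cardiac muscle signal (12.8 against 10.7 to 11.2 on the other nRBC arrays). After quantile normalization CTSB on Gga.3854.1.S2_at and LGMN were highest on that array. Without it both were highest on E4 nRBC replicate 2, the array with the highest median deposited signal. A link of these values to the cardiac signal was not tested.

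**Figure D4:**
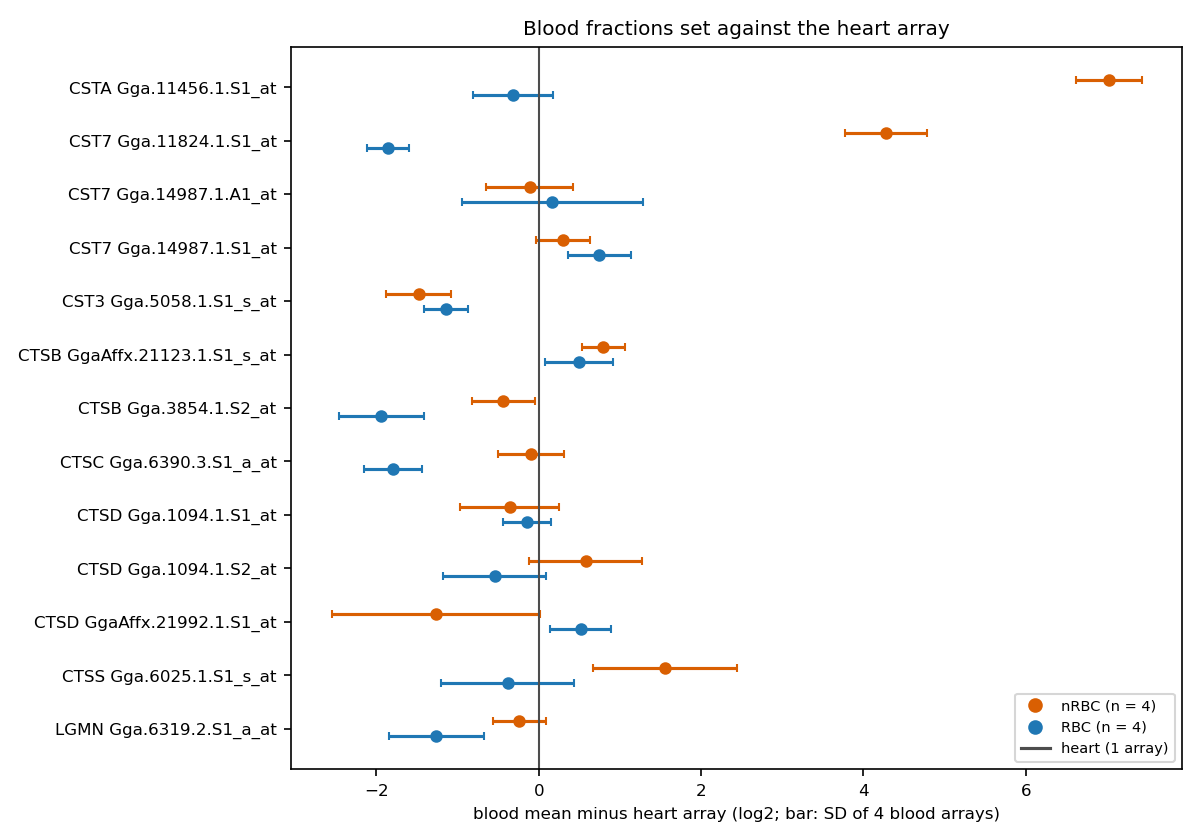
Mean log2 signal of 4 nRBC arrays and of 4 RBC arrays minus that of the single heart array (horizontal axis) for the 13 probe sets, with bars giving the SD of the 4 blood arrays. The nRBC points of CSTA (7.02) and CST7 on Gga.11824.1.S1_at (4.28) lie far right of the heart line, and both points of CST3 lie left of it.

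Other genes of the pathway were read from lists, each gene by its brightest probe set, and here the limma test between the fractions is given, in which 4.56% of all probe sets were higher and 0.809% lower in nRBCs. Of 14 other cathepsins and lysosomal peptidases, 1 was higher and 0 lower, and their median difference was 0.16. The gene was CTSO, a papain-like cathepsin, which averaged 6.26 ± 0.58 in nRBCs and 1.83 ± 1.57 in RBCs (SD, n = 4 each), an excess of at least 10.1-fold (adjusted p = 0.008086). The heart exceeded both, at 8.81. This fold and the later ones given as "at least" hold only under the rule stated for CST7. CTSO was read by an _s_at probe set, as were HEXA, CTBS and NPC2 below. CTSH, CTSA and BLMH were Present on all arrays and differed by 0.51, 0.23 and -0.10 without passing. CTSV was 1.13 lower in nRBCs (9.65 ± 0.31 in nRBCs and 10.78 ± 0.34 in RBCs) and did not pass (adjusted p = 0.1161).

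Of 14 other protease inhibitors, 3 were higher and 0 lower in nRBCs, with a median difference of 0.87. CSTB, the cytosolic cystatin B, averaged 8.85 ± 0.31 in nRBCs and 6.04 ± 0.37 in RBCs (SD, n = 4 each), a difference of 2.80 (SE 0.36, adjusted p = 0.002191), and stood at 8.78 in the heart. The stefin pair thus shared its direction, with CSTB Present on all arrays and CSTA not Present on any RBC array. SERPINB12, a serpin of the intracellular clade, was at least 12.2-fold higher in nRBCs (6.37 ± 0.42 in nRBCs and 1.67 ± 0.21 in RBCs, adjusted p = 0.000197), and RARRES1, a retinoid-induced gene whose protein is related to latexin, was at least 21.9-fold higher (adjusted p = 0.007741). SERPINB12 was not Present in the heart (1.74), whereas RARRES1 was brighter there (9.59) than in either fraction. Serine proteases of the granule type that cathepsin C activates in mammals were represented by GZMA, GZMK and, from the list of other cathepsins, CTSG (cathepsin G). None of these was Present on an nRBC array or past the test (adjusted p = 0.3099 for GZMA, 0.5852 for GZMK and 0.3992 for CTSG).

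Of 8 genes of MHC class II presentation, 2 were higher in nRBCs and 0 lower. IFI30, the lysosomal thiol reductase of antigen processing, was at least 16.5-fold higher (7.85 ± 0.57 in nRBCs and 3.67 ± 1.26 in RBCs, adjusted p = 0.004938). BLB1, a class II beta chain, passed as well (adjusted p = 0.001721) but was Present on 1 nRBC array only, so no size is given. CD74, the invariant chain that cathepsin S cuts, was read by the brightest of its 3 probe sets. It was Present on all nRBC arrays and no RBC array, at 8.69 ± 1.21 in nRBCs and 5.62 ± 1.57 in RBCs, and did not pass (adjusted p = 0.07955).

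Most lysosomal genes showed no call. Of 27 lysosomal hydrolases, 5 were higher and 0 lower in nRBCs, and the median difference was -0.09. GALNS, a sulfatase, was 2.47 higher (adjusted p = 0.003407) and PLBD1, a phospholipase B-like protein, 2.09 higher (adjusted p = 0.01089). HEXA, a subunit of beta-hexosaminidase, was at least 7.66-fold higher (adjusted p = 0.01381) with Present calls on 2 nRBC arrays, and CTBS, a chitobiase, at least 4.83-fold higher (adjusted p = 0.01793). The fifth was the sulfatase ARSB (adjusted p = 0.04567). CTBS did not pass without E6 nRBC replicate 1, either E4 nRBC array or E6 RBC replicate 1, and ARSB did not without any single nRBC or E6 RBC array, with adjusted p-values up to 0.06645 and 0.1231 over the alternatives. Of 38 genes of the lysosomal membrane, of sorting and of acidification, NPC2, a lysosomal cholesterol carrier, was 3.01 higher (adjusted p = 0.00263) and LAPTM5, a lysosomal membrane protein of blood cells, 2.11 higher (adjusted p = 0.03529), while 36 were not called. LAPTM5 did not pass without any single array other than E6 nRBC replicate 2 and E6 RBC replicate 2. No gene of these lists was called between the stages.

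**Figure D5:**
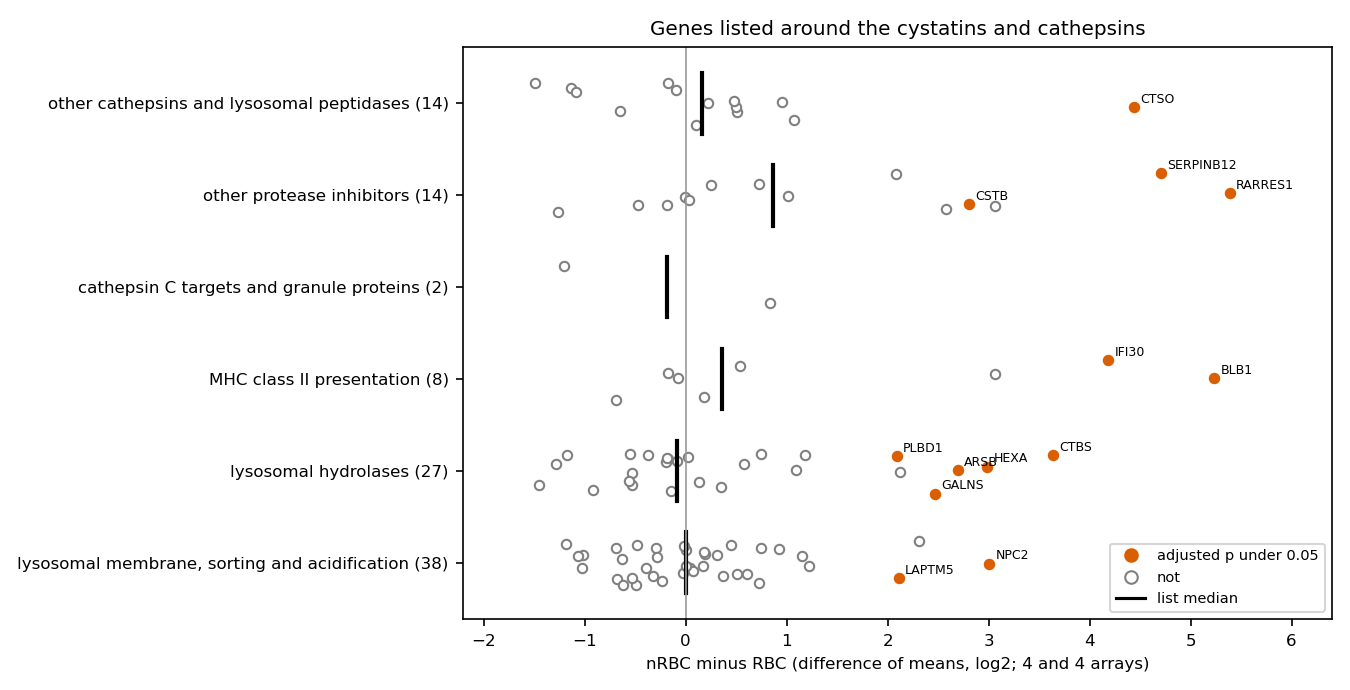
Difference between the nRBC and the RBC mean in log2 units (horizontal axis) for the genes of 6 lists, 1 point per gene, with filled points at an adjusted p under 0.05 by limma and black bars at the list medians. Named filled points lie right of 0 in 5 of the lists, and the medians lie between -0.185 and 0.867.

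The genes most like each cystatin or cathepsin over the 9 arrays were found by Pearson's correlation among 9823 probe sets with 1 symbol and Present calls on at least 4 blood arrays. With 3 kinds of sample the coefficients mainly restate the order of nRBC, RBC and heart, so they are given as a description. CSTA was most like MAL (r = 0.992), LCP2 (0.992) and LIMS1 (0.991), and CST7 on Gga.11824.1.S1_at most like ITGB3 (0.990), LCP2 (0.989) and LIMS1 (0.988). Both inhibitors thus had LCP2, an adaptor of immune receptor signalling, and LIMS1, an adaptor of integrin signalling, in their closest 3. ITGB3 codes for the beta chain of the thrombocyte integrin, and averaged 12.09 in nRBCs, 5.31 in RBCs and 7.69 in the heart.

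The proteases had other companions. CTSS was most like TUBD1 (0.977), SPI1 (0.976), the transcription factor PU.1 of myeloid cells, and RNASE6 (0.967). CTSD on Gga.1094.1.S2_at was most like DOCK1 (0.964), ZYX (0.962) and IMMP1L (0.926). For CTSB on Gga.3854.1.S2_at, CTSC and LGMN, whose heart value was near that of nRBCs, the closest genes were NR3C2 (0.986), HMGN4 (0.990) and PDCD6IP (0.965). CST3 had no companion above 0.931, the closest being DNAJC12, which was also highest in the heart (5.87 in nRBCs, 6.17 in RBCs and 8.53 in the heart). No companion was shared between CST7 on Gga.14987.1.S1_at, which was most like KBTBD4 (0.955), and CST7 on Gga.11824.1.S1_at.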

How the data were processed

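RNA of nRBC and RBC fractions at E6 and E4 (2 arrays each) and of heart (1 array) was amplified in 2 cycles and hybridized by the authors. The deposited intensity values are MAS5 signals on a linear scale with detection calls, made by the authors from the scanned arrays and not scaled between arrays; no source used here names the MAS5 version. In the series matrix the authors gave these signals as log2 less a constant for each array (largest deviation 2.1e-06, column medians -0.25 to -0.13).

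The table lists 38535 probe sets, of which 96 are Affymetrix controls and were dropped. Signals of 0 (11 on the blood arrays) were set to 0.1, log2 was taken and the 8 blood arrays were quantile normalized. The heart signals were placed on the quantiles of the blood arrays. Genes were named from the platform annotation (1 symbol for 27168 probe sets, several for 177, none for 11094; 26853 of those with 1 symbol were found in the RefSeq table of GRCg7b). No filter on detection was applied. Gene positions of that table served only to see which genes lie between CST3 and CST7, and no sequences were used.

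Fractions (4 nRBC against 4 RBC arrays) and stages (a model of the 4 group means that contrasts E6 with E4 among nRBCs, among RBCs, and between these) were fitted by lmFit and eBayes of limma 3.58.1 (R 4.3.3), with Benjamini-Hochberg adjustment over all 38439 probe sets and a threshold of 0.05. The tests measure the spread between pools and take all arrays as independent, and the number of arrays limits the precision. For a probe set Present on no RBC array, "at least N-fold" sets the nRBC mean against the mean, over RBC arrays, of the larger of its own value and the lowest Present value (2.18 to 3.11 on the blood arrays). The lowest Present value is not a detection limit of each probe set, so the bound depends on this rule. The script was tested on simulated data.

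The genes, lists and rules were chosen with earlier results of these data known. All probe sets of the 8 genes are given. From the lists, up to 4 genes per direction with the lowest p and every other cathepsin or cystatin past the threshold are named; CTSV, CTSH, CTSA, BLMH, GZMA, GZMK, CTSG, CD74 and ARSB are further names chosen after their values were seen. The likeness rule takes the 3 closest genes of the brightest probe set of each gene, to which CST7 on Gga.11824.1.S1_at was added after its values were seen. Alternatives were 3 other scalings, 16 added to each signal, a filter on Present calls, the series matrix, an intensity trend, blocks for replicate number and for array scale, and leaving out each blood array. Added after seeing the data were differences within the 5 blood arrays with many signals under 1 and within the 3 with few. The 3 were replicate 2 of E4 nRBC, E6 RBC and E4 RBC.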

Additional observations from a re-analysis of the deposited data

Results flagged for a closer look

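Each of the 13 probe sets was examined for a single array far from the others in nRBCs and in RBCs, 26 groups of 4 arrays. In 1 of them an array stood apart. CST7 on Gga.14987.1.S1_at measured 6.13 on E6 RBC replicate 1, against 5.31 to 5.44 on the other RBC arrays, and the gap to its neighbour was 0.843 of the whole range, past Dixon's critical value for groups of 4. Chance flags about 1 group in 20.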

How the results depend on the processing

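Between the fractions, 1753 probe sets were higher and 311 lower in nRBCs. Leaving out 1 array at a time gave 1150 (without E4 nRBC replicate 2) to 1546 higher and 132 to 250 lower. The number lower was 987 with 16 added to each signal, 705 with an intensity trend, 741 among probe sets Present on at least 2 arrays, 43 without quantile normalization and 109 with the replicate number as a block (1198 higher). Between the stages in RBCs, 0 probe sets were called, against 1, 3 and 10 with 16 added, an intensity trend and the filter on Present calls, none of them among the 13. The lowest adjusted p of the 13 over all stage contrasts and alternatives was 0.3746. Replicate numbers were not taken as pairs, since no source states that same-numbered arrays share pools. Their deviations correlated at -0.05 (E6) and 0.08 (E4), which with 2 arrays per group cannot show whether pools were shared. With the replicate block HEXA, ARSB, PLBD1, CTBS and LAPTM5 no longer passed (adjusted p = 0.06287 to 0.1101), and no other named call changed. CTSV and CD74 passed with 16 added, an intensity trend or the filter on Present calls, and CD74 also with the series matrix. Other protease inhibitors higher numbered 3, and 5 under the filter on Present calls. They numbered 4 when a call on any probe set of a gene counted. Genes of MHC class II presentation then numbered 3 instead of 2. Genes of the lysosomal membrane list numbered 2, and 1 without quantile normalization. The 2 probe sets more than 1 log2 unit below the heart became 1 without E6 nRBC replicate 1 or without E6 nRBC replicate 2, the lost one being CTSD on GgaAffx.21992.1.S1_at. The causes were not tested. Probe sets with a low signal have differences that shift with the treatment of low values, and 2 arrays per group leave wide intervals for the stages.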
